A study of Mus musculus with 76 samples.

Results

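Transcript levels of 10 genes of the NF-kappaB system were followed through the thymus of mice. These were its 5 subunit genes (Nfkb1, Nfkb2, Rela, Relb and Rel) and 5 genes whose products regulate it (Nfkbia, Nfkbie, Nfkbiz, Tnfaip3 and Birc3). They were chosen by gene symbol among 55487 genes, and all 10 were found and tested in every table. Mice of genotype Sod1Mut, called SOD1 here, carry a mutant human SOD1 transgene (G93A) and model amyotrophic lateral sclerosis (ALS). They were compared with WT mice, and the labels give both genotypes the strain SOD1-G93A and no promoter, clone or number of animals per library. Medullary thymic epithelial cells (mTEC), cortical thymic epithelial cells (cTEC), regulatory T cells (Treg) and T cells labelled CD4 came from digested, sorted thymus of SOD1 and WT mice at d120 and d30 (46 libraries). Cells labelled Treg and placed in vitro, in cultures titled Tregdiff, were sequenced without activation (T0) and at activation T2 and T20. These time labels carry no unit (18 libraries). Whole thymus and whole inguinal lymph node (iLN) of SOD1 and WT mice at d120 gave 6 libraries each. Of the 26 groups 24 had 3 libraries, and WT cTEC and WT CD4 cells of d30 had 2. The labels do not say which libraries came from separate mice, so each p measures the spread between these libraries, which may be technical.

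NF-kappaB subunits work as pairs that are kept in the cytoplasm by inhibitors of the IkappaB family and released when kinases mark the inhibitor for destruction. The canonical route, fed by antigen receptors and by receptors such as those for tumour necrosis factor (TNF), frees pairs of the Nfkb1 product with Rela or Rel. The noncanonical route, fed by receptors such as RANK, CD40 and the lymphotoxin beta receptor, turns the Nfkb2 precursor into a partner of Relb. In the thymus mouse genetics has tied Relb and Nfkb2 to the formation of mTEC, and Rel to the formation of Treg cells. Several inhibitor genes are themselves targets of the pathway and close a feedback loop.

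The depth, as total counts of a library, was 15135 to 36919936 in the sorted cells, 171619 to 19699330 in the cultures and 63887 to 894958 in iLN. The library SOD1 mTEC d30 1 had 15135 counts, so that 1 count stood for 34.4 CPM (counts scaled to a common library total), and SOD1 cTEC d120 3 had 7627 genes detected. Sod1, counted as the mouse gene, was used to check genotype in sorted cells, cultures and iLN, and not in whole thymus. It was higher in every SOD1 library than in every WT library of its set except in mTEC of d30. There SOD1 mTEC d30 1 lay at 34.4 CPM beside 31.2 to 35.1 CPM in WT. Aire, the mTEC regulator of self-antigen expression, stood at 619 to 2039 CPM in the libraries labelled mTEC and at no more than 26.2 CPM in those labelled cTEC. The sum of all 10 mTEC markers separated them less, at 5640 to 11060 CPM in mTEC and 1768 to 8487 CPM in cTEC of d120, with overlap, and at 1824 to 5046 CPM in mTEC and 1119 to 2106 CPM in cTEC of d30, also with overlap. Psmb11, whose product is the cTEC thymoproteasome subunit, reached 24.99 CPM at most in mTEC and stood at 10.02 to 1472 CPM in cTEC, lowest in SOD1 cTEC d120 3. The libraries labelled CD4 also held 121 to 445 CPM of Cd8a. Foxp3, the Treg lineage factor, stood at 33.5 to 265 CPM in sorted Treg and at 5.91 to 25.2 CPM in CD4 libraries, and at 3.56 to 31.8 CPM in T0 cultures. At T2 Foxp3 stood at 59.4 to 265 CPM and at T20 at 39.5 to 325 CPM. Libraries of d30 and d120 carry names of different schemes, so age and preparation cannot be told apart. In bulk libraries fewer cells with a transcript and less of it per cell cannot be told apart either.

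The stretches just before the start sites of members whose transcripts moved in the comparisons are shown as a description of where the family's own binding motif lies beside its genes. RefSeq (GRCm38.p6) gave windows for 7 of the 10 members, and none was given for Nfkb1, Relb and Nfkbiz. Both strands of the 250 bases before each start were searched for the kappaB consensus, counting overlapping places. It was found in 7 of 10 member windows and in 5 of the 7 members, and in 7.25% of all 32851 promoter windows of the same length. Capitals mark the letters that match, and a match is a description of letters, not a site of binding. The windows printed are those of Nfkb2 (chr19:46304487-46304736, plus strand), Rel (chr11:23770970-23771219, minus strand), Nfkbia (chr12:55492648-55492897, minus strand), Nfkbie (chr17:45555450-45555699, plus strand), Tnfaip3 (chr10:19015411-19015660, minus strand) and, without a match, Rela (chr19:5637291-5637540, plus strand).
Nfkb2: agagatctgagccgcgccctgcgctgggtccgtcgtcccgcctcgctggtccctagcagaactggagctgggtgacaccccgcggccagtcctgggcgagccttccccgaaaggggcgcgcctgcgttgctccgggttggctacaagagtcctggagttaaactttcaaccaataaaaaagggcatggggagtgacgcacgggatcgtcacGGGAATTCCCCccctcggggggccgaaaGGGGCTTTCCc
Rel: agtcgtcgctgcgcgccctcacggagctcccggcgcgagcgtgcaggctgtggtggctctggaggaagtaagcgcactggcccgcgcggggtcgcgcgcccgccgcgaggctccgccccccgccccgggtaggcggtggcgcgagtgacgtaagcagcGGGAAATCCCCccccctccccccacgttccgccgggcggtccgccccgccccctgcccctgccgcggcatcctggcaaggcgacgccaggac
Nfkbia: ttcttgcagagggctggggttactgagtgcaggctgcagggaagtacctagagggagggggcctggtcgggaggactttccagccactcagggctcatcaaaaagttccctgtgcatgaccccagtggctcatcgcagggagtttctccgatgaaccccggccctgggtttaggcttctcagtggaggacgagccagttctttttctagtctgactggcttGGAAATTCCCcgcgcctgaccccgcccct
Nfkbie: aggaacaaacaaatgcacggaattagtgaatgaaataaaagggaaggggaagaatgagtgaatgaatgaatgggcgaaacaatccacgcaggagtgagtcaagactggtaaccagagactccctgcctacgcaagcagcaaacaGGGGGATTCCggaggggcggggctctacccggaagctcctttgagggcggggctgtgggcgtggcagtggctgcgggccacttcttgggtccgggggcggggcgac
Tnfaip3: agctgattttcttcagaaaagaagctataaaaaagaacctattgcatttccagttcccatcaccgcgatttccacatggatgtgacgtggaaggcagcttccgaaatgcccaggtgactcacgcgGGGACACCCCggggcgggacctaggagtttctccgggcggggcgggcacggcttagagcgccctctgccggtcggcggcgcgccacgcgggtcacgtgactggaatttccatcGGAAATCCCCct
Rela: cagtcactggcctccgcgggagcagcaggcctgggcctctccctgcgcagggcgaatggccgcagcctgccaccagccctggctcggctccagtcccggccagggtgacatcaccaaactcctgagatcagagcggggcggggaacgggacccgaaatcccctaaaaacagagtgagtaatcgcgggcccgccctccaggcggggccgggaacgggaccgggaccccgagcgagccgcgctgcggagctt
The Nfkb2 window, the first of 3 given for this gene, held 3 places, of which 2 overlapped between bases 39 and 29 before the start and the third lay at bases 11 to 2. The other windows of Nfkb2 each held 1 place in the bases before the start. In Rel 2 overlapping places lay between bases 92 and 82 before the start, and in Nfkbia the only place lay at bases 29 to 20. Nfkbie had 1 place at bases 106 to 97, and Tnfaip3 had places at bases 125 to 116 and 12 to 3. Windows of Rela and Birc3 and the other window of Tnfaip3 held none of these letters.

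Levels were first read per length, as CPM per kilobase of exon, so that genes could be set beside each other. Nfkbia (chromosome 12, 55489410 to 55492647, minus strand, mm10), which encodes the inhibitor IkappaB alpha, had the highest level of the 10 in every sorted population and day, in the cultures at each time and in iLN. It averaged 2969 CPM per kilobase in mTEC and 2337 in cTEC of d120, and 867.8 and 723 in mTEC and cTEC of d30. Among the subunits Nfkb2 (chromosome 19, 46304320 to 46312385, plus strand) and Relb (chromosome 7, 19606217 to 19629438, minus strand) led in mTEC of d120, at 93.4 and 78.8 CPM per kilobase, beside 72.3 for Rela, 19.2 for Nfkb1 and 18.8 for Rel. In cTEC, Treg and CD4 libraries of both days Rela (chromosome 19, 5637483 to 5648130, plus strand) led the subunits instead, at 37.1 to 113 CPM per kilobase. At T2 and T20 of the cultures Nfkb1 (chromosome 3, 135584655 to 135691547, minus strand), the precursor of the most widely used DNA-binding partner, led at 38.7 and 31.2 CPM per kilobase. Rel (chromosome 11, 23736847 to 23770970, minus strand) was the member with the lowest mean in both mTEC and cTEC of d120, at 18.8 and 8.54 CPM per kilobase. In whole thymus, given by the authors in TPM (transcript abundance scaled for length and library), Nfkbia again led at 262 ± 27.8 TPM and Rel was lowest at 9.23 ± 1.71 TPM (SD, n = 6 each, both genotypes).

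Across the 8 sorted conditions, each gene's own CPM gave an order. For Nfkbia it ran from mTEC of d120 at 4780 ± 672 CPM through cTEC of d120 at 3763 ± 939 CPM, mTEC of d30 at 1397 ± 486 CPM, cTEC of d30 at 1165 ± 242 CPM, CD4 of d120 at 1101 ± 363 CPM, Treg of d120 at 733 ± 148 CPM and CD4 of d30 at 651 ± 218 CPM to Treg of d30 at 347 ± 63.2 CPM (SD, n = 6, or 5 in cTEC and CD4 of d30). Neighbours in this order overlapped between libraries, except that every cTEC library of d120 lay above every mTEC library of d30 and every CD4 library of d30 above every Treg library of d30. Nfkb2 ran from mTEC of d120 at 428 ± 87.5 CPM and mTEC of d30 at 306 ± 36.4 CPM through cTEC of d30 at 166 ± 59.1 CPM, CD4 of d120 at 164 ± 86.8 CPM, Treg of d120 at 159.6 ± 36.6 CPM and cTEC of d120 at 109 ± 62.8 CPM to CD4 and Treg of d30 at 91.1 ± 26.6 and 82.0 ± 20.98 CPM. All neighbours in the order of Nfkb2 overlapped. Rel had another order, with CD4 of d120 at 185 ± 50.6 CPM and CD4 of d30 at 182 ± 34.1 CPM first, cTEC of d30 at 164 ± 116 CPM, Treg and mTEC of d120 at 142 ± 36.1 and 140.0 ± 31.5 CPM and Treg of d30 at 112 ± 27.2 CPM next, and cTEC of d120 and mTEC of d30 last at 63.8 ± 34.1 and 60.2 ± 12.2 CPM. Its neighbours overlapped too.

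**Figure D1:**
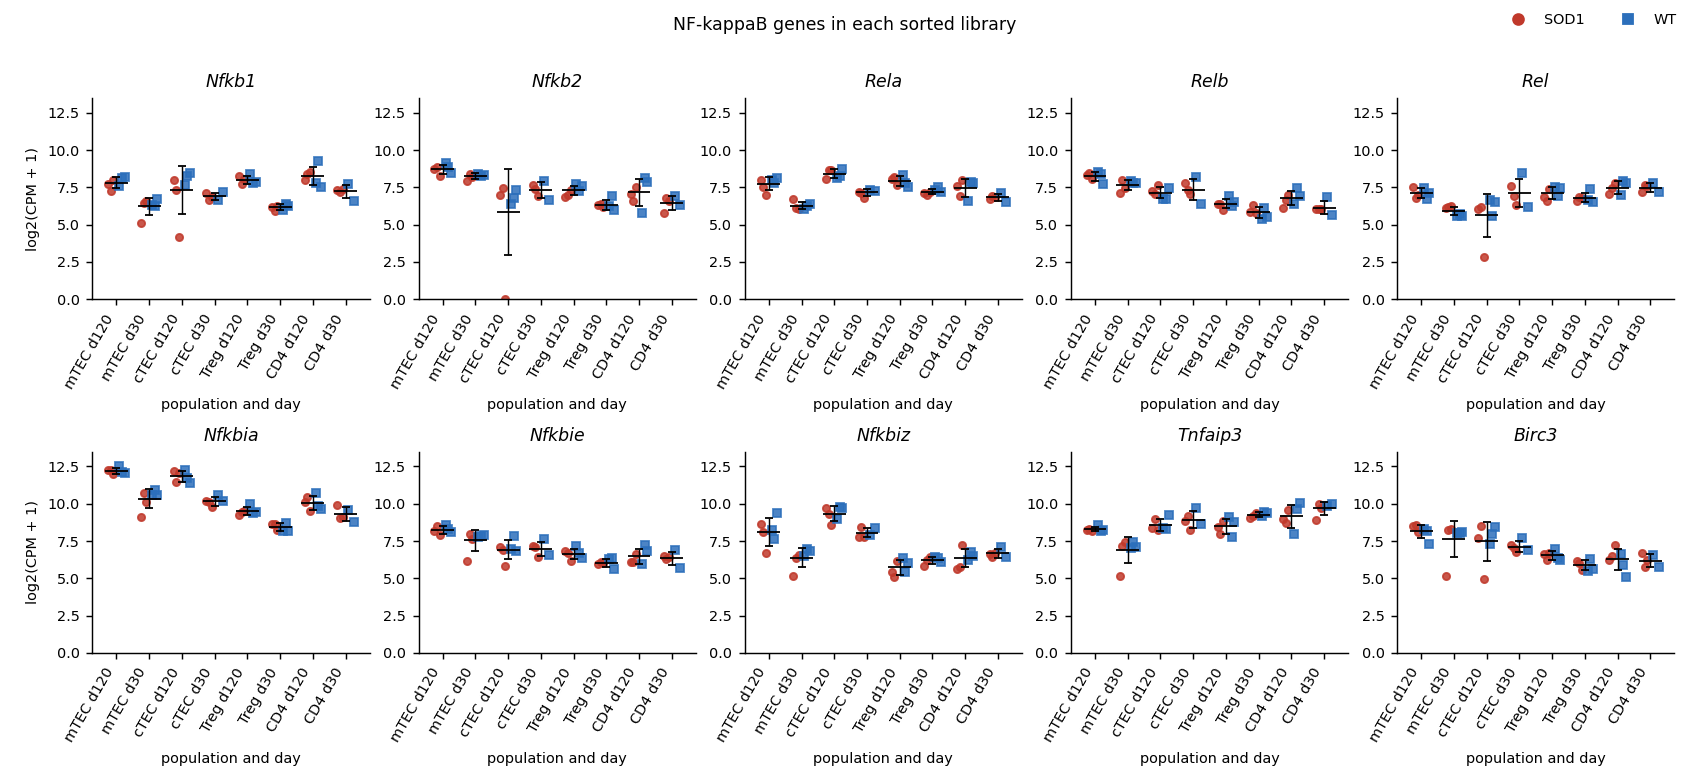
Level of each of the 10 genes in every sorted library, as log2(CPM + 1), by population and day, with SOD1 and WT libraries as separate points and a line for the mean ± SD of both genotypes. Nfkb2 and Relb are highest in mTEC, Nfkbia, Rela and Nfkb1 are higher at d120 than at d30 within each population on average, and SOD1 and WT points mix.

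Medullary epithelium was set against cortical epithelium on each day. At d120 mTEC held more of both noncanonical subunits, Nfkb2 and Relb, more Rel and more of the inhibitor Nfkbie, and less Rela and Nfkbiz. With both genotypes averaged, 6 of the 10 members passed edgeR's test at an adjusted p under 0.05, 4 higher and 2 lower, where 28.7% of all genes tested passed, 23.7% higher and 4.97% lower. The members' median log2 fold change was 0.35 and that of all genes tested 0.62.

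Nfkb2 stood at 304 to 554 CPM with a median of 443 CPM in mTEC of d120, against 0 to 174 CPM with a median of 119 CPM in cTEC. The groups did not overlap, and the lowest value, 0 counts, was that of SOD1 cTEC d120 3. Its log2 fold change was 1.97 ± 0.48 (SE, edgeR adjusted p = 0.00218), and 1.67 without that library (adjusted p = 0.00017). Relb stood at 209 to 367 CPM with a median of 324 CPM in mTEC, against 103 to 206 CPM with a median of 143 CPM in cTEC. Again every mTEC library was above every cTEC library, by a log2 fold change of 1.08 ± 0.29 (edgeR adjusted p = 0.00433), and the call was lost with no filter on low counts (adjusted p = 0.0686). Rel, a subunit of the canonical route best known in lymphocytes, stood at 107 to 181 CPM with a median of 135 CPM in mTEC, against 6.01 to 102 CPM with a median of 69.1 CPM in cTEC. The groups of Rel did not overlap either, and the log2 fold change was 1.18 ± 0.37 (edgeR adjusted p = 0.0147), or 0.91 without SOD1 cTEC d120 3, which held the lowest value (adjusted p = 0.0227). Its call was lost with limma voom (log2 fold change 0.88, adjusted p = 0.208), with no filter on low counts (adjusted p = 0.0509) and with the epithelial libraries fitted alone (adjusted p = 0.0584). Nfkbie (chromosome 17, 45555703 to 45563169, plus strand), the gene of IkappaB epsilon, stood at 236 to 379 CPM with a median of 306 CPM in mTEC, against 55.4 to 231 CPM with a median of 123 CPM in cTEC. It did not overlap either and had a log2 fold change of 1.28 ± 0.30 (edgeR adjusted p = 0.00135).

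Rela, the main activating subunit of the canonical route, went the other way at d120. It stood at 129 to 282 CPM with a median of 239 CPM in mTEC, against 268 to 422 CPM with a median of 349 CPM in cTEC, and the groups overlapped. The log2 fold change of -0.66 ± 0.25 (edgeR adjusted p = 0.0434) lost its call in 11 alternatives, among them those without SOD1 mTEC d120 2 or 3, WT mTEC d120 1 or 2, SOD1 cTEC d120 2 or WT cTEC d120 3, with adjusted p of 0.0602 to 0.243 over the 11. Nfkbiz (chromosome 16, 55811375 to 55838899, minus strand), an atypical nuclear IkappaB protein, stood at 101 to 665 CPM with a median of 289 CPM in mTEC, against 377 to 868 CPM with a median of 732 CPM in cTEC. Its groups overlapped, with a log2 fold change of -1.09 ± 0.33 (edgeR adjusted p = 0.0108). The sum of 16 early genes known to rise during tissue dissociation was 23880 to 47320 CPM in mTEC and 31920 to 58840 CPM in cTEC of d120, and 6 of the 16 were lower in mTEC and none higher. Their part in the lower Nfkbiz was not tested. Nfkb1, Nfkbia, Tnfaip3 and Birc3 did not pass at d120, with log2 fold changes of 0.17 ± 0.35, 0.35 ± 0.24, -0.35 ± 0.29 and 0.36 ± 0.37.

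At d30 edgeR called no member higher in mTEC and 4 lower (Rela, Rel, Nfkbiz and Tnfaip3), where 22.3% of all genes passed, 16.6% higher and 5.69% lower. The median log2 fold change of the members was -0.15 and that of all genes 0.03. Tnfaip3 (chromosome 10, 19000910 to 19015657, minus strand), which encodes a ubiquitin-editing enzyme that shuts off signalling, stood at 34.4 to 176 CPM with a median of 137 CPM in mTEC, against 303 to 829.7 CPM with a median of 464 CPM in cTEC. The groups were apart, by a log2 fold change of -1.91 ± 0.32 (edgeR adjusted p = 8.89e-05). Rela stood at 66.4 to 103 CPM with a median of 73.0 CPM in mTEC and at 112 to 163 CPM with a median of 147 CPM in cTEC, without overlap (log2 fold change -0.97 ± 0.27, edgeR adjusted p = 0.00916). That call was lost with median-of-ratios scaling (adjusted p = 0.0690), which moved the median of all genes by over 0.1, to 0.29. Nfkbiz stood at 34.4 to 123 CPM with a median of 91.8 CPM in mTEC and at 217 to 350.0 CPM with a median of 242 CPM in cTEC, again without overlap (log2 fold change -1.56 ± 0.35, edgeR adjusted p = 0.0019). The 16 dissociation genes, described above for d120, summed to 4990 to 15020 CPM in mTEC and 15860 to 26390 CPM in cTEC of d30, without overlap, and 8 of the 16 were lower in mTEC and none higher. Their part in the lower Tnfaip3 and Nfkbiz was not tested. For Nfkb2 the values were 241 to 336 CPM with a median of 318 CPM in mTEC and 99.0 to 241 CPM with a median of 165 CPM in cTEC, and the log2 fold change of 0.89 ± 0.51 did not pass (edgeR adjusted p = 0.23). Counts of calls at d30 rested on the method: 7 members passed with DESeq2, 9 with limma voom and 7 without libraries of low depth, among which SOD1 mTEC d30 1. Over all genes DESeq2 called 3544 of 43345, voom 10142 of 21733 and the fit without low depth 5548 of 21702. Of those genes 2617, 6508 and 3843 were higher in mTEC. Every member gained in these settings was higher in mTEC. Nfkbie and Birc3, at 0.67 and 0.79 in edgeR, were gained in all 3 and with median-of-ratios scaling, at 0.79 to 0.997 for Nfkbie and 0.96 to 1.09 for Birc3. Nfkb2 gave 1.14 with voom (adjusted p = 2.81e-05) and 0.93 once libraries of low depth were left out (adjusted p = 0.0254).

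Rel turned its direction between the days. At d30 it stood at 47.5 to 73.6 CPM with a median of 60.6 CPM in mTEC, against 72.6 to 352 CPM with a median of 121 CPM in cTEC, and the groups overlapped narrowly, with the highest value in WT cTEC d30 2. The log2 fold change was -1.49 ± 0.40 (edgeR adjusted p = 0.0065), and without WT cTEC d30 2 it was -0.73 and not called (adjusted p = 0.256). A test of the difference between the days, added after these values had been seen, gave 2.66 ± 0.54 for Rel (edgeR adjusted p = 0.0023) and 1.56 ± 0.43 for Tnfaip3 (edgeR adjusted p = 0.0354), the 2 members called where 2.93% of all genes passed, 575 of 637 of them higher, or 390 of 493 with median-of-ratios scaling. Without WT cTEC d30 2 these were 1.94 (adjusted p = 0.0617) and 1.30 (adjusted p = 0.191), neither called. Without SOD1 cTEC d120 3 the difference was 2.37 for Rel (adjusted p = 0.000688) and 1.44 for Tnfaip3, the second no longer called (adjusted p = 0.0519). Myeloid and dendritic markers summed to 379 to 851 CPM in mTEC and 815 to 10360 CPM in cTEC of d30, highest in WT cTEC d30 2, and to 327 to 1611 CPM in mTEC and 228 to 641 CPM in cTEC of d120. Of these 10 markers 4 were lower and none higher in mTEC at d30, and 7 were higher and none lower at d120, and Adgre1 had 0 counts in cTEC of d120. T cell markers were lower in mTEC in 8 of 8 at d30 and in 3 of 8 at d120. The part of these cells in the Rel and Tnfaip3 values was not tested.

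**Figure D2:**
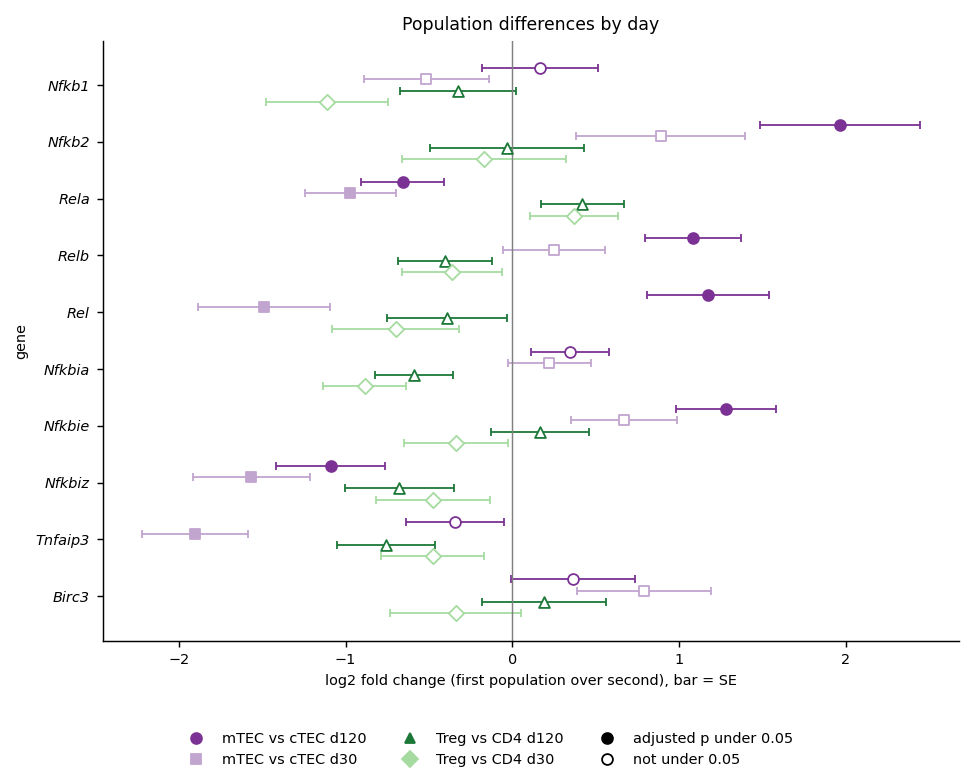
Log2 fold changes with SE of the 10 genes for mTEC against cTEC and for Treg against CD4 cells, at d120 and d30, from the edgeR fit of all 46 sorted libraries, with filled markers for an adjusted p under 0.05. Nfkb2, Relb, Rel and Nfkbie are filled above 0 for mTEC against cTEC at d120, Rel is filled below 0 at d30, and no Treg against CD4 marker is filled.

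Balances between subunits of the same library do not depend on the scaling of that library. They were taken as log2 ratios of counts with 1 count added, in 18 tests by an exact two-sided permutation test whose smallest possible p is 0.00216. Nfkb2 to Nfkb1 averaged 0.90 in mTEC and -1.58 in cTEC at d120, a difference of 2.48 without overlap (exact p = 0.00216, adjusted p = 0.00487). At d30 it averaged 1.89 in mTEC and 0.41 in cTEC, a difference of 1.47 with the same p and again without overlap. Each mTEC library thus held more Nfkb2 relative to Nfkb1 than each cTEC library of its day. Relb to Rela averaged 0.48 in mTEC and -1.27 in cTEC at d120, a difference of 1.75 without overlap (exact p = 0.00216, adjusted p = 0.00487), and 1.40 in mTEC and 0.20 in cTEC at d30, a difference of 1.21 (exact p = 0.00866, adjusted p = 0.013). Rel to Rela averaged -0.65 in mTEC and -2.79 in cTEC at d120, a difference of 2.15 without overlap (exact p = 0.00216, adjusted p = 0.00487). Without SOD1 cTEC d120 3, the lowest library in Nfkb2 to Nfkb1 and Rel to Rela, the d120 differences were 1.85 and 1.52, both still called. At d30 Rel to Rela averaged -0.34 in mTEC and -0.06 in cTEC, a difference of -0.28 that did not pass (exact p = 0.491).

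Both Nfkb2 to Nfkb1 and Relb to Rela differed in the same direction between mTEC and cTEC on both days. Between Treg and CD4 cells Rel to Rela was lower in Treg, at -0.82 in Treg and 0.04 in CD4 at d120 (difference -0.85, exact p = 0.0152, adjusted p = 0.021) and at -0.42 in Treg and 0.66 in CD4 at d30 (difference -1.09, exact p = 0.00216, adjusted p = 0.00487). The d30 groups did not overlap. Relb to Rela was lower in Treg too, by -0.85 at d120 (exact p = 0.00433, adjusted p = 0.00779) and by -0.70 at d30 (exact p = 0.0173, adjusted p = 0.0223), the second of which lost its call without any 1 of 5 Treg libraries of d30 (SOD1 1 and 3, WT 1, 2 and 3), with adjusted p up to 0.051. Nfkb2 to Nfkb1 was higher in Treg by 0.95 at d30 (exact p = 0.00649, adjusted p = 0.0106), and its difference of 0.37 at d120 did not pass (exact p = 0.357).

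**Figure D3:**
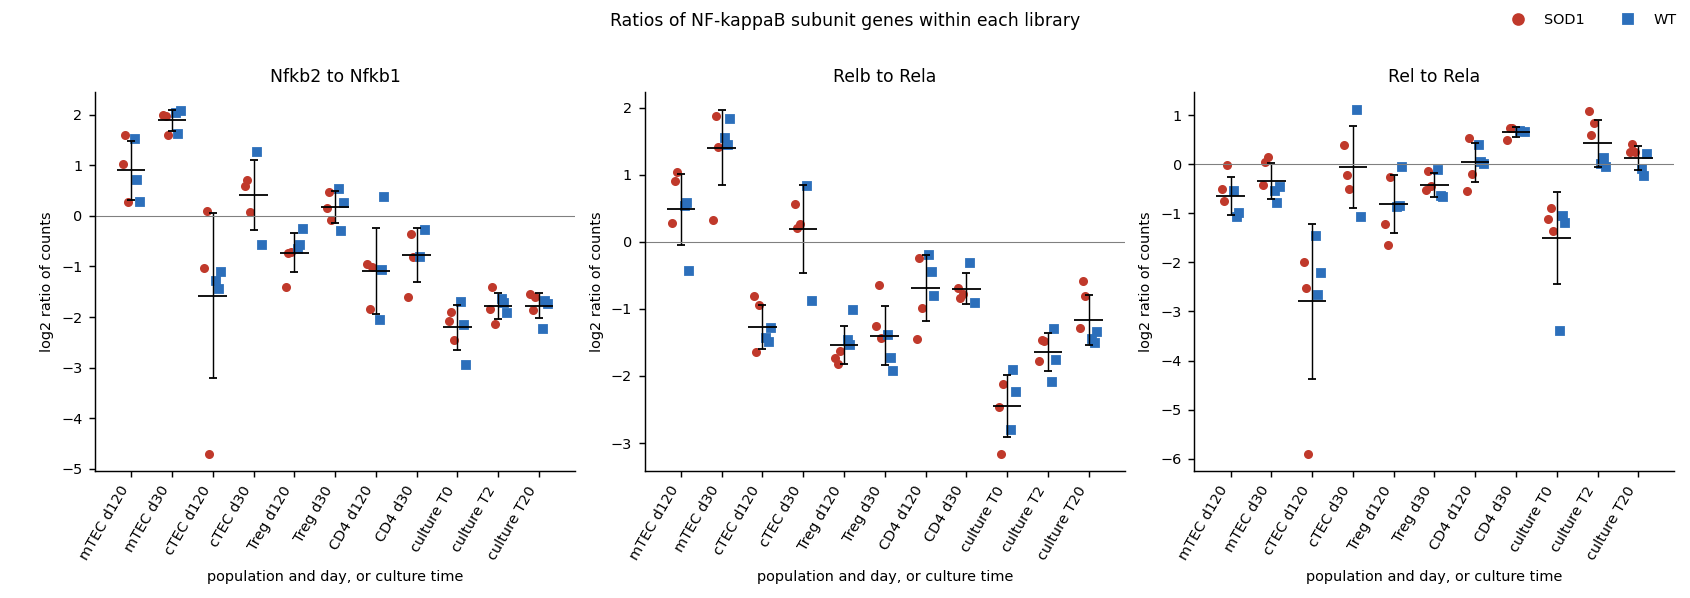
Log2 ratio of counts for Nfkb2 to Nfkb1, Relb to Rela and Rel to Rela in every sorted and culture library, by population and day or culture time, with a line for the mean ± SD of both genotypes. At d120 all mTEC points lie above all cTEC points in the 3 ratios, and Rel to Rela rises above every T0 value at T2 and T20.

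Among T cells Treg were set against CD4 libraries. No member passed at d120, where 5.25% of all genes did, and none at d30, where 0.856% did. At an unadjusted p under 0.05 edgeR gave 3 members at d120 and 2 at d30, and the share of all genes at that threshold was not taken. DESeq2 called 4 and 1, and limma voom 3 and 4, all but 1 of them lower in Treg, the exception being Rela at d120 with voom. Over all genes DESeq2 called 1738 of 43345 at d120 and 564 at d30, and voom 7690 of 21733 at d120 and 2856 at d30. The members' median log2 fold change was -0.36 at d120 and -0.42 at d30, and that of all genes 0.44 and 0.02. With median-of-ratios scaling the d120 median of all genes was 0.10, and 505 of 918 genes called were higher in place of 922 of 1140. Nfkbia stood at 614 to 1025 CPM with a median of 697 CPM in Treg, against 714 to 1666 CPM with a median of 1026 CPM in CD4 cells of d120, with overlap (log2 fold change -0.59 ± 0.24, edgeR adjusted p = 0.15). At d30 it stood at 281 to 418 CPM with a median of 347 CPM in Treg and 436 to 981 CPM with a median of 561 CPM in CD4 cells. These groups did not overlap, but the log2 fold change of -0.88 ± 0.25 missed the threshold (edgeR adjusted p = 0.0786). DESeq2 called Nfkbia on both days, at -0.89 (adjusted p = 9.12e-05) and -0.83 (adjusted p = 0.00218). Nfkb1 was the other member without overlap at d30, at 59.4 to 84.5 CPM in Treg and 93.6 to 209 CPM in CD4 (log2 fold change -1.11 ± 0.37, edgeR adjusted p = 0.188). Rel stood at 93.3 to 179.5 CPM in Treg and 125 to 245 CPM in CD4 cells of d120, with overlap and a log2 fold change of -0.39 ± 0.36. The test of a difference between the days called no member, where 0.0644% of all genes passed, and no member reached an unadjusted p under 0.05.

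Epithelial cells, the mean of mTEC and cTEC, were also set against T cells, the mean of Treg and CD4. At d120 they held more Relb, Nfkbia, Nfkbie, Nfkbiz and Birc3 and less Rel, which made 5 of 10 members called higher and 1 lower where 43.2% of all genes were called, 20.6% higher and 22.6% lower. The call of Rel was lost with limma voom (log2 fold change -0.55, adjusted p = 0.0833). At d30 they held more of the same 5 and more Nfkb2, and less Tnfaip3, which made 6 called higher and 1 lower where 38% of all genes were called, 26% higher and 12% lower. Nfkbia averaged 4271 CPM in epithelial and 917 CPM in T cell libraries of d120 without overlap, a log2 fold change of 2.24 ± 0.17 (edgeR adjusted p = 5.34e-14), and 1.44 ± 0.18 at d30 (edgeR adjusted p = 2.53e-08). Nfkbiz gave 2.74 ± 0.24 at d120 and 0.86 ± 0.25 at d30 (edgeR adjusted p = 2.49e-12 and 0.00452), and Birc3, a ubiquitin ligase of TNF receptor complexes that holds the noncanonical route down (chromosome 9, 7848699 to 7873186, minus strand), gave 1.54 ± 0.27 and 1.53 ± 0.29. Relb was higher by 1.11 ± 0.20 and 1.59 ± 0.22. Of the 16 dissociation genes 16 were higher in epithelial cells at d120 and 11 at d30, with sums of 23880 to 58840 CPM in epithelial and 2006 to 5366 CPM in T cell libraries of d120. Their part in the Nfkbia and Nfkbiz differences was not tested.

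Change with age was read within each population, as d120 against d30. Nfkbia was higher at d120 in all 4 populations, Nfkb1 in mTEC, Treg and CD4 and Rela in mTEC, cTEC and Treg, each called by edgeR. In mTEC 6 members were higher and none lower, where 3.16% of all genes were called, 2.09% higher and 1.06% lower. All 10 members had positive log2 fold changes there, with a median of 1.19, beside -0.08 over all genes. In cTEC 3 were higher and none lower where 4.63% of all genes were called, 1.61% higher and 3.02% lower, with a members' median of 0.50 beside -0.30. In Treg 7 were higher and 1 lower where 29.9% of all genes were called, 16.1% higher and 13.8% lower, with medians of 0.62 and 0.01. In CD4 cells 2 were higher where 10.6% of all genes were called, 4.66% higher and 5.92% lower, with medians of 0.66 and -0.02.

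Nfkbia stood at 3993 to 5912 CPM with a median of 4710 CPM in mTEC of d120, against 551 to 1913 CPM with a median of 1565 CPM in mTEC of d30, without overlap (log2 fold change 1.79 ± 0.25, edgeR adjusted p = 0.00159). The same change was 1.92 ± 0.26 in cTEC and 1.06 ± 0.14 in Treg, both without overlap, and 1.05 ± 0.28 in CD4 cells with overlap (edgeR adjusted p = 0.00174, 0.00016 and 0.0291). Rela stood at 129 to 282 CPM in mTEC of d120 and 66.4 to 103 CPM in mTEC of d30, without overlap (log2 fold change 1.60 ± 0.23, edgeR adjusted p = 0.0016). It rose by 1.51 ± 0.34 in cTEC and by 0.71 ± 0.11 in Treg, again without overlap, and its 1.001 ± 0.32 in CD4 cells did not pass (edgeR adjusted p = 0.0625). Nfkb1 stood at 208 to 331 CPM with a median of 248 CPM in Treg of d120 and 59.4 to 84.5 CPM with a median of 73.3 CPM in Treg of d30. That log2 fold change of 1.85 ± 0.13 (edgeR adjusted p = 5.87e-06) was the highest of any member in Treg, and the groups did not overlap. In mTEC Nfkb1 changed by 1.45 ± 0.24 and in CD4 cells by 1.37 ± 0.34 (edgeR adjusted p = 0.00468 and 0.0218). In cTEC its 0.97 ± 0.54 did not pass (edgeR adjusted p = 0.387).

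Members that rose in one population did not all rise in the others. Rel stood at 107 to 181 CPM in mTEC of d120 and 47.5 to 73.6 CPM in mTEC of d30, without overlap (log2 fold change 1.25 ± 0.22, edgeR adjusted p = 0.00794). In cTEC Rel had 6.01 to 102 CPM at d120 and 72.6 to 352 CPM at d30, and the log2 fold change of -1.24 ± 0.62 did not pass (edgeR adjusted p = 0.321). Nfkbiz rose by 1.77 ± 0.37 in mTEC and 1.53 ± 0.33 in cTEC and was not called in Treg or CD4, at -0.44 ± 0.24 and 0.06 ± 0.34. Tnfaip3 rose by 1.13 ± 0.23 in mTEC (edgeR adjusted p = 0.0165) and fell by 0.74 ± 0.22 on the log2 scale in Treg (edgeR adjusted p = 0.0206), with 219.6 to 544 CPM in Treg of d120 and 531 to 701 CPM in Treg of d30 and overlap. Differences of the age change between mTEC and cTEC are the between-day test given above, in which Rel and Tnfaip3 were called. The noncanonical pair was called in Treg, Nfkb2 by 0.95 ± 0.17 and Relb by 0.55 ± 0.15. In CD4 cells the higher values of 1.11 ± 0.42 for Nfkb2 and 0.91 ± 0.31 for Relb did not pass. That of Relb was called with DESeq2 (adjusted p = 0.0390) and with the replicate block (adjusted p = 0.0497). This block joined libraries of the same title number across days, and 0 of 22 such pairs correlated above 0.1. Nfkb2 gave 0.48 ± 0.20 in mTEC and -0.42 ± 0.82 in cTEC, neither called, and whether the age change differed between Treg and the other populations was not tested. Nfkbie and Birc3 were called in Treg as well, at 0.58 ± 0.14 and 0.65 ± 0.18.

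The dissociation genes moved in step with age in the epithelial cells and the opposite way in the T cells. Their sum was 23880 to 47320 CPM in mTEC of d120 and 4990 to 15020 CPM in mTEC of d30, and 13 of 16 were higher. In cTEC it was 31920 to 58840 CPM at d120 and 15860 to 26390 CPM at d30, with 11 of 16 higher. In Treg it was 2506 to 5366 CPM at d120 and 6836 to 8697 CPM at d30, with 9 of 16 lower, and in CD4 cells 2006 to 3957 CPM and 6051 to 9938 CPM, with 5 of 16 lower. The part of these genes in the change of the members was not tested in any population. Myeloid markers were lower at d120 in cTEC in 6 of 10 and in mTEC in none. In cTEC T cell markers summed to 110 to 278.5 CPM at d120 and 925 to 1475 CPM at d30. Double-positive thymocyte markers there summed to 28.05 to 252 CPM at d120 and 785 to 1464 CPM at d30. The cTEC markers summed to 12630 to 24200 CPM in cTEC of d120 and 14820 to 43450 CPM in cTEC of d30. For mTEC markers these sums were 1768 to 8487 CPM and 1119 to 2106 CPM. Double-positive thymocyte markers summed to 937 to 1546 CPM in Treg of d120 and 2308 to 3310 CPM in Treg of d30. The 6 B cell markers summed to 1234 to 4593 CPM in Treg of d120 and 389 to 1393 CPM in Treg of d30, and 3 of 6 were higher at d120. Their sums reached 10470 CPM in mTEC and 15310 CPM in cTEC of d120, against 318 CPM in mTEC and 1764 CPM in cTEC of d30, and none of them was called with age in mTEC or cTEC. The part of these other cells in the age changes was not tested. In CD4 cells the Nfkb1 and Nfkbia calls were lost without SOD1 d30 2 or 3 or WT d30 2 or 3, and that of Nfkbia also without SOD1 d120 1 or 2 (adjusted p up to 0.194). In cTEC the Rela and Nfkbiz calls were lost without SOD1 d30 1, 2 or 3, WT d30 2 or 3 or WT d120 3 (adjusted p up to 0.166). Both were also lost with the replicate block (adjusted p = 0.0792 and 0.0623), and Rela with no filter on low counts (adjusted p = 0.0923). In mTEC the Nfkbiz and Tnfaip3 calls were lost without SOD1 d30 2 or WT d30 1 or 3, and that of Nfkbiz without SOD1 d30 3 (adjusted p up to 0.0747).

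**Figure D4:**
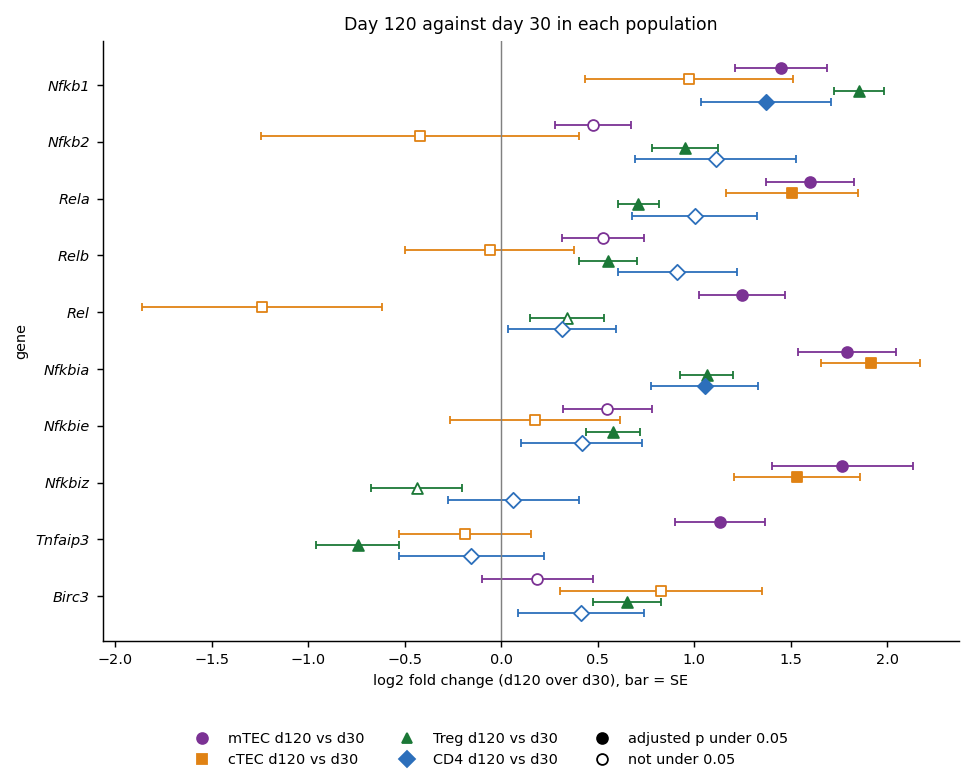
Log2 fold changes with SE of the 10 genes at d120 against d30 within mTEC, cTEC, Treg and CD4 cells, from the edgeR fit of each population, with filled markers for an adjusted p under 0.05. Nfkbia is filled above 0 in all 4 populations, and Tnfaip3 is filled above 0 in mTEC and below 0 in Treg.

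Genotype was tested in 13 settings, the 4 populations on 2 days, the cultures at 3 times, iLN and whole thymus. No member was called in any of the 130 member tests by edgeR or, in whole thymus, limma. Over all genes the share called ran from 0.00529% in mTEC of both days to 0.0933% in the T2 and T20 cultures, with 0.00684% in cTEC, 0.0135% in Treg and 0.00801% in CD4 cells on both days, 0.0679% at T0, 0.0574% in iLN and 0.0831% in whole thymus. At an unadjusted p under 0.05 there were 4 member tests of 130, and no member was called under any alternative. The share of all genes under that unadjusted threshold was not taken. In Treg of d120 Nfkb2 stood at 116, 125 and 163 CPM in SOD1 and 209, 152 and 193 CPM in WT libraries, with overlap (log2 fold change -0.57). Relb stood there at 81.3, 82.3 and 63.7 CPM in SOD1 and 119, 74.6 and 90.9 CPM in WT libraries, also with overlap (-0.47). In T2 cultures Rel stood at 171, 128 and 104 CPM in SOD1 and 89.8, 82.7 and 74.7 CPM in WT libraries, without overlap (0.75). In T20 cultures Tnfaip3 stood at 62.1, 131 and 54.2 CPM in SOD1 and 37.2, 34.5 and 38.5 CPM in WT libraries, without overlap (1.09). The lowest edgeR adjusted p among these 4 was 0.562.

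Precision differed between the populations. Standard errors of the genotype log2 fold changes had a median of 0.22 in Treg of d120 and 0.23 in Treg of d30, 0.32 and 0.33 in mTEC, 0.43 and 0.47 in CD4 and 0.59 and 0.65 in cTEC of d120 and d30. In mTEC the values ran from -0.62 (Nfkbiz) to 0.40 (Birc3) at d120 and from -0.56 (Nfkbia) to 0.54 (Rel) at d30. In cTEC they ran from -1.01 (Nfkb1) to 0.42 (Relb) at d120 and from -0.81 (Rel) to -0.16 (Nfkb1) at d30. In Treg they ran from -0.57 (Nfkb2) to -0.08 (Rela) at d120 and from -0.12 (Rela) to 0.45 (Relb) at d30, and in CD4 from -0.56 (Nfkb2) to 0.74 (Birc3) and from -0.35 (Tnfaip3) to 0.18 (Nfkbia). In iLN they ran from -0.76 (Relb) to 0.20 (Nfkb1), and in whole thymus from -0.27 (Rela) to 0.13 (Relb) on the log2(TPM + 1) scale. None of 60 tests of whether the genotype effect differed between days or culture times was called, where 0% of all genes were. Of these, 2 had an unadjusted p under 0.05, both in Treg between the days, with Relb at -0.91 the larger. Here too the share of all genes at that threshold was not taken.

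The cultures showed the members in Treg cells as labelled, before and after activation. At T2 against T0, 7 of 10 members were higher and none lower, where 58.1% of all genes were called, 23.8% higher and 34.3% lower. At T20 against T0 again 7 were higher and none lower, where 58.2% of all genes were called, 24.1% higher and 34.1% lower. The median log2 fold change of the members was 0.90 at T2 and 0.96 at T20, beside -0.24 and -0.25 over all genes. Both comparisons share the T0 libraries. Between T20 and T2 no member was called, where 0% of all genes were, and none had an unadjusted p under 0.05.

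Nfkb2, Nfkb1 and Rel had the highest log2 fold changes of the subunits. Nfkb1 stood at 42.7 to 123 CPM with a median of 87.4 CPM at T0, 382 to 629 CPM with a median of 425 CPM at T2 and 305 to 423 CPM with a median of 383 CPM at T20. Every activated library lay above every T0 library, with log2 fold changes of 2.37 ± 0.24 at T2 and 2.05 ± 0.24 at T20 (edgeR adjusted p = 2.94e-07 and 1.44e-06). Nfkb2 stood at 10.7 to 27.2 CPM with a median of 17.4 CPM at T0, 91.3 to 176 CPM with a median of 137 CPM at T2 and 75.9 to 139 CPM with a median of 109 CPM at T20. It too did not overlap with T0, and its log2 fold changes of 2.87 ± 0.25 and 2.56 ± 0.25 were the highest of the members (edgeR adjusted p = 7.93e-08 and 2.87e-07). Rel stood at 3.56 to 38.4 CPM with a median of 29.99 CPM at T0, 74.7 to 171 CPM with a median of 97.1 CPM at T2 and 59.9 to 88.6 CPM with a median of 77.7 CPM at T20. The lowest T0 value, in WT T0 1, was 1 count, and no activated library overlapped with T0 (log2 fold changes 1.84 ± 0.26 and 1.38 ± 0.26, edgeR adjusted p = 1.19e-05 and 0.000226). Rela by contrast stood at 63.5 to 79.4 CPM at T0, 56.5 to 89.8 CPM at T2 and 51.4 to 79.1 CPM at T20. Its groups overlapped, with log2 fold changes of 0.12 ± 0.17 and -0.05 ± 0.17 that did not pass. The T2 value was 0.50 and called once libraries of low depth were left out (adjusted p = 0.0367). Relb stood at 7.12 to 19.6 CPM, 16.8 to 30.6 CPM and 23.6 to 37.2 CPM at T0, T2 and T20, with log2 fold changes of 0.89 ± 0.27 and 1.15 ± 0.28 (edgeR adjusted p = 0.00944 and 0.00166).

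The regulator genes had smaller log2 fold changes than Nfkb1, Nfkb2 and Rel. Nfkbia stood at 98.4 to 153 CPM with a median of 119 CPM at T0, 126 to 263 CPM with a median of 190.0 CPM at T2 and 154 to 243 CPM with a median of 215 CPM at T20. The T2 group overlapped with T0 and the T20 group did not, with log2 fold changes of 0.69 ± 0.20 and 0.79 ± 0.20 (edgeR adjusted p = 0.00752 and 0.00291). Nfkbie stood at 2.94 to 12.03 CPM, 17.4 to 28.1 CPM and 9.34 to 23.6 CPM at T0, T2 and T20 (log2 fold changes 1.40 ± 0.31 and 1.04 ± 0.31, edgeR adjusted p = 0.000835 and 0.00808), the second of which was lost without SOD1 T20 1 (adjusted p = 0.118). Tnfaip3 stood at 10.7 to 36.5 CPM, 26.1 to 90.6 CPM and 34.5 to 131 CPM, with overlap at both times (0.91 ± 0.32 and 0.88 ± 0.33, edgeR adjusted p = 0.0211 and 0.027). That call at T2 was lost with limma voom (adjusted p = 0.0895) and without SOD1 T2 1 or WT T2 2. At T20 it was lost without SOD1 T20 2 or WT T20 3. Without these single libraries the adjusted p was 0.0535 to 0.133. Birc3 and Nfkbiz did not pass, at 0.63 ± 0.27 and -0.61 ± 0.28 at T2. Without the libraries of low depth Birc3 was called at both times, at 1.01 and 0.90 (adjusted p = 0.0039 and 0.0135), and likewise with no filter on low counts, at 1.06 and 0.98. DESeq2 and median-of-ratios scaling also called Birc3 at T2, and limma voom called Nfkbiz lower there (adjusted p = 0.0299). Against Rela the ratio of Rel was higher by 1.93 at T2 and by 1.64 at T20, without overlap with T0 at either time (exact p = 0.00216 each, adjusted p = 0.00487). Relb to Rela was higher by 0.81 and 1.29 (exact p = 0.00433 and 0.00216, adjusted p = 0.00779 and 0.00487). For Nfkb2 to Nfkb1 the differences of 0.43 at each time did not pass (adjusted p = 0.0682 and 0.0675).

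**Figure D5:**
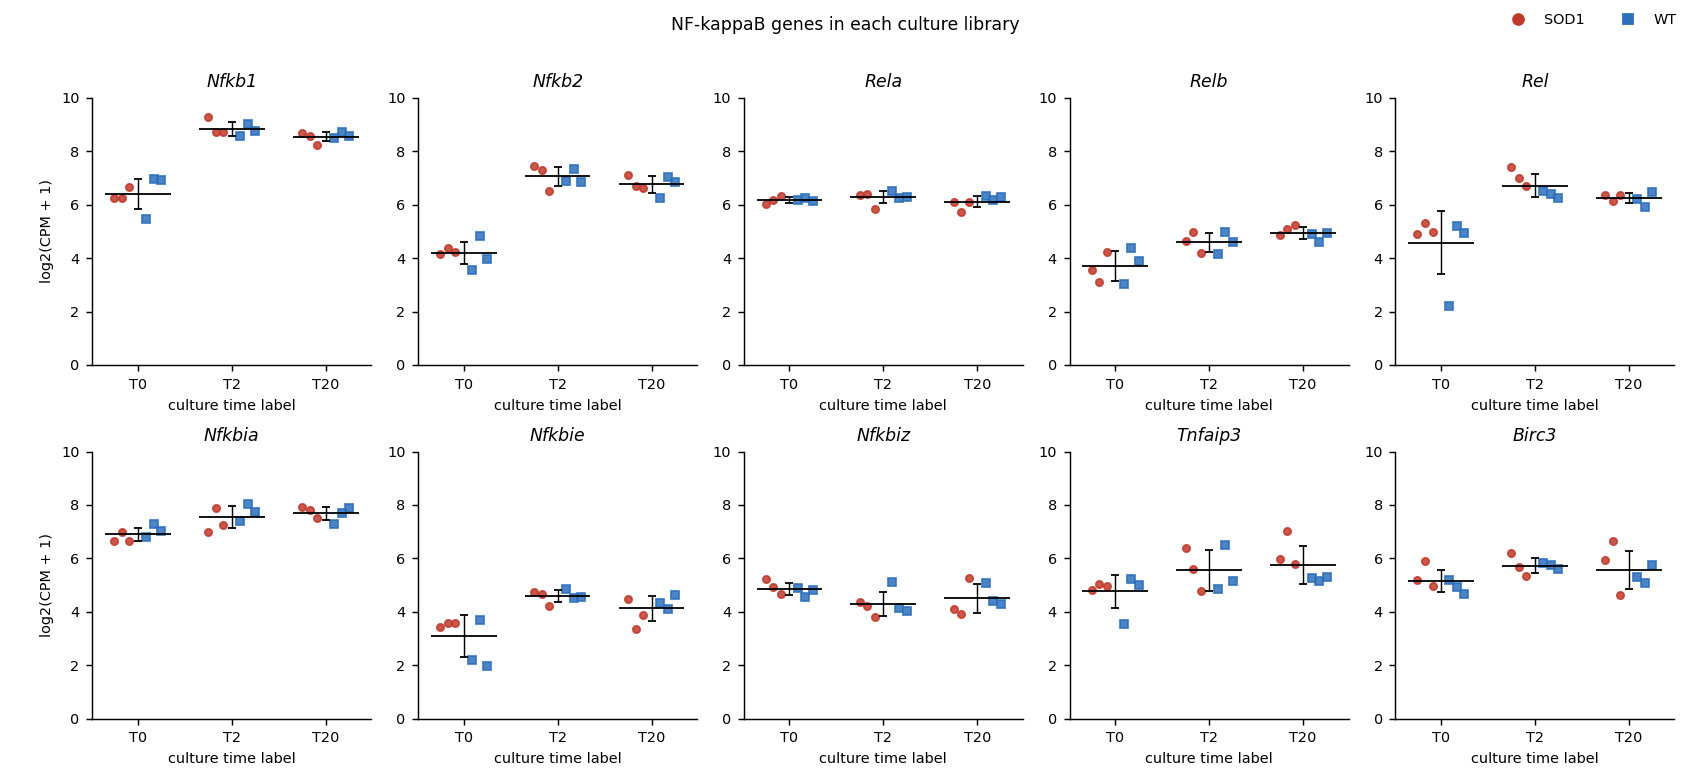
Level of each of the 10 genes in every culture library as log2(CPM + 1) at T0, T2 and T20, with SOD1 and WT libraries as separate points and a line for the mean ± SD of both genotypes. Nfkb1, Nfkb2 and Rel lie above all T0 points at T2 and T20, and Rela stays in one range.

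The make-up of the cultures moved with these changes. All 10 Treg markers were higher at T2 and at T20, with sums of 105 to 585 CPM at T0, 2291 to 5549 CPM at T2 and 2316 to 4531 CPM at T20. Double-positive thymocyte markers were lower in 8 of 9 tested at each time, with sums of 581 to 1701 CPM at T0, 82.6 to 258 CPM at T2 and 125 to 193 CPM at T20. Whether the cells at T0 were Treg cells could not be settled from these markers. The part of the make-up in the members' change was not tested.

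The rest of the pathway was read from lists of its ligands, receptors, adaptors, kinases, other inhibitors and targets. Ligands were higher in mTEC than cTEC of d120 in 9 of 14 and lower in none (median 4.24), among them Tnfsf9 at 247 CPM in mTEC and 11.2 CPM in cTEC and Tnf itself at 185 CPM in mTEC and 11.8 CPM in cTEC (log2 fold change 4.01). Receptors were higher in 8 of 16 and lower in 2 (median 1.60), led by Tnfrsf11a, the gene of RANK and itself an mTEC marker, at 177.5 CPM in mTEC and 8.88 CPM in cTEC. Of 19 adaptors and ubiquitin enzymes 7 were higher and 1 lower (median 0.52), led by Traf1, an adaptor of TNF receptors, at 207 CPM in mTEC and 19.7 CPM in cTEC. Of 10 activating kinases 3 were higher and none lower (median 0.68), Ikbke, Ikbkb and Map3k14, the kinase that starts the noncanonical route (60.4 CPM in mTEC and 23.1 CPM in cTEC). In a list of 6 other genes tied to the IkappaB family Nfkbid, an atypical nuclear IkappaB, stood at 198 CPM in mTEC and 17.5 CPM in cTEC (3.54). Nkiras1, whose product is not itself an IkappaB protein, was the only lower gene of this list. Of 25 target genes 12 were higher and 3 lower (median 0.78), with the chemokine genes Ccl22 and Ccl20 among the higher. All genes tested had a median of 0.62 in this contrast, and 23.7% of them were called higher and 4.97% lower. At d30 target genes were higher in 5 and lower in 6 of 25, with Irf1, Ier3 and Cd83, itself a cTEC marker, lower. Ligands were higher in 2 and lower in 2 of 14, with Il1b lower. Of all genes tested at d30 16.6% were called higher and 5.69% lower. Traf1 was higher in mTEC at d120 and lower at d30 (-1.50), and its difference between the days, by the same added test, was 4.89 (edgeR adjusted p = 1.01e-05).

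With age Nfkbib, the gene of IkappaB beta, rose in mTEC (1.67), Treg (1.26) and CD4 cells (1.22). In mTEC 8 of 25 target genes rose and none fell (median 0.44, all genes -0.08), among them Cxcl1 (2.04) and Gadd45b (2.02), and the ligands Tnf (2.06) and Tnfsf9 (1.73) rose. In cTEC 6 of 25 targets rose and 4 fell (median -0.13, all genes -0.30), with Cxcl10 (2.54) higher and Cd83 (-2.65), itself a cTEC marker, lower. In Treg 8 of 23 tested targets rose and 3 fell (median 0.24, all genes 0.01), and in CD4 cells 2 of 23 rose and 1 fell (median 0.20, all genes -0.02). Between Treg and CD4 cells 6 of 25 targets were higher and 1 lower in Treg at d120 and 2 higher and none lower at d30. Il2ra, the interleukin 2 receptor alpha chain gene and itself a Treg marker, led on both days (5.32 at d120 and 4.97 at d30). Of all genes tested 4.24% were called higher and 1% lower in Treg at d120, and 0.433% and 0.423% at d30.

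In the activated cultures 14 of 19 tested target genes were higher and 1 lower at T2, with a median of 2.52. At T20 these were 14 and 1, with a median of 2.65. Of all genes tested 23.8% were called higher and 34.3% lower at T2, and 24.1% and 34.1% at T20. Cd44 stood at 14.8 CPM at T0, 262 CPM at T2 and 204 CPM at T20. Ligands were higher in 7 and lower in 1 of 10 tested at each time, with the lymphotoxin gene Lta at 25.2 CPM at T0, 639 CPM at T2 and 656 CPM at T20. Receptors were higher in 7 and lower in 2 of 10 tested at each time, with Cd27 lower. The kinases went the other way, with none higher and 6 of 10 lower at T2 (median -0.85) and 8 of 10 at T20 (median -0.96), among them Ikbke at 203 CPM at T0, 29.7 CPM at T2 and 36.4 CPM at T20. Bcl3, an atypical nuclear IkappaB, stood at 3.14 CPM at T0, 41.0 CPM at T2 and 46.6 CPM at T20 (log2 fold changes 3.63 and 3.99).

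Likeness of pattern was read as Pearson's r of log2 CPM over the 46 sorted libraries against 11974 genes with a mean of at least 5 CPM, as a description, since libraries share population and preparation. The genes most like Nfkb2 were Ehd1 (r = 0.924), Agap3 (0.889) and Slc25a38 (0.885). For Relb they were H2-K1 (0.849), Lpin3 (0.840) and H2-Q6 (0.829), and for Rel they were Vasp (0.862), Traf1 (0.852) and Zfp622 (0.805). Nfkbia was most like Gadd45b (0.955), Cd9 (0.930) and Gm9817 (0.921).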

How the data were processed

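Bulk RNA sequencing libraries of sorted mTEC, cTEC, Treg and CD4 cells, Tregdiff cultures, iLN and whole thymus were used as deposited. Per the labels they were made with the SMARTseq v4 low input kit. The authors deposited raw counts per gene for sorted cells, cultures and iLN, and TPM, which keeps no depth, for whole thymus. The submitters' processing notes list mm10 and DESeq2 with no word on their use. Which aligner and counter were used, and whether strand was kept, is not given in the sources used here. Gene symbols came from the whole thymus table, joined by gene ID, and positions from GENCODE vM21, which held 55094 of the 55487 IDs. Total counts ran from 15135 to 36919936 per library.

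Counts passing filterByExpr, set by group, were scaled by TMM and tested in R 4.3.3 with edgeR 4.0.16 (estimateDisp, glmQLFit with the legacy option and glmQLFTest), at a Benjamini-Hochberg adjusted p under 0.05 over every gene fitted. Populations were compared within a single fit of all 46 sorted libraries (21733 genes), and days and genotypes in a fit per population. The cultures (11787 genes) and iLN (5226 genes) were fitted alone. Whole thymus was tested with limma 3.58.1 on log2(TPM + 1), keeping genes whose mean reached 1 TPM, since the table holds TPM where counts had been foreseen. CPM use TMM factors over the genes that passed, so levels are comparable within the sorted cells and within the cultures. Subunit ratios took 1 added count. The edgeR tests of the mTEC and culture fits and the limma test of whole thymus were checked on simulated data. The other fits and the ratio tests were not. No 2 libraries of a group held identical values, and none agreed within sampling noise.

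The members and gene lists were chosen with earlier results of these data known. Up to 4 genes per list with the smallest p were eligible to be named, and the 3 most alike genes for Relb, Nfkb2, Rel and Nfkbia. Alternatives were DESeq2 1.42.0, limma voom with quality weights, median-of-ratios scaling, no filter on low counts, 2 populations or 2 groups alone, a block for the replicate number, and leaving out every library in turn. Fits without libraries under 3e+05 counts or 8000 genes, and the test of the population difference between the days, are described with their values, and the latter was chosen after the values had been seen. Tables and plots used Python 3.11.15 with matplotlib 3.10.9 and pandas 2.3.3, and data.table (version 1.17.8) in R.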

Additional observations from a re-analysis of the deposited data

Results flagged for a closer look

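A pair of members differed between the days in how mTEC compared with cTEC, in a test added after their values had been seen. Rel was higher in mTEC at d120 (log2 fold change 1.18) and lower at d30 (-1.49), and the difference between the days was 2.66 ± 0.54 (edgeR adjusted p = 0.0023). Leaving out WT cTEC d30 2 gave 1.94 (adjusted p = 0.0617). Tnfaip3 was not called at d120 (-0.35) and was lower in mTEC at d30 (-1.91), with a difference of 1.56 ± 0.43 (edgeR adjusted p = 0.0354). Its call was lost in most alternatives, with 1.20 in DESeq2 (adjusted p = 0.0988) and 1.30 without WT cTEC d30 2 (adjusted p = 0.191). Groups as labelled held 3 or 2 libraries, so no formal outlier test was run, and libraries that decided a call are named beside it.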

How the results depend on the processing

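Of 836 alternative values for counts of members called and for ratios, 772 kept their direction and side of the threshold, with counts within 1.5 times. The 772 include the counts for genotype and for T20 against T2, which were 0 in the main fits and in every alternative. Of the 58 member calls 41 held under every alternative run, 10 were lost under another setting and 7 only when 1 library was left out, and the cause was not tested. For mTEC against cTEC at d30 the 4 members called became 7 with DESeq2, 9 with limma voom and 7 without libraries of low depth. Over all genes these settings called 3544 of 43345, 10142 of 21733 and 5548 of 21702. At d120 the 6 became 3 with no filter on low counts, where 5857 of 43345 genes were called. For Treg against CD4 at d30 the 0 became 1 with DESeq2, 4 with voom, 1 with median-of-ratios scaling, 2 without libraries of low depth and 2 with these populations alone. Over all genes these settings called 564 of 43345, 2856 of 21733, 226 of 21733, 386 of 21702 and 735 of 15725. At d120 the 0 became 4, 3, 2 and 4 with DESeq2, voom, median-of-ratios scaling and these populations alone. Over all genes these called 1738 of 43345, 7690 of 21733, 918 of 21733 and 2766 of 15725. The 2 members called between the days were 1 with DESeq2, voom, median-of-ratios scaling or without libraries of low depth and 0 with these populations alone. In cTEC the 3 age calls became 5 with voom and 5 without libraries of low depth, and in CD4 cells the 2 became 4 with DESeq2. Over all genes these settings called 1919 of 14620, 1805 of 15077 and 2606 of 29622. With 0.5 counts added the Nfkb2 to Nfkb1 ratio in culture was called, at 0.46 for both T2 and T20 (exact test, adjusted p = 0.0487 and 0.0416).

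With 1 library left out, counts ran from 0 to 1 for Treg against CD4 at d120, 0 to 2 between the days, 1 to 5 with age in cTEC and 0 to 5 with age in CD4 cells. The ratio Rel to Rela for mTEC against cTEC at d30 ran from -0.54 to 0.0085 and turned its sign without WT cTEC d30 2 (exact test, adjusted p = 0.967). Relb to Rela for Treg against CD4 at d30 ran from -0.85 to -0.59, and Nfkb2 to Nfkb1 from 0.28 to 0.53 at T2 and 0.28 to 0.53 at T20. The replicate number was not taken to pair the libraries, since not every pair correlated above 0.1 (at most 10 of 22 of a family). As a hint from the data, 43 of 44 libraries correlated best with their own library number across populations and 29 of 36 with their own number across culture times. The 22 pairs by library number across populations had an r of 0.0273 to 0.289, all positive. Libraries of the same number may thus share a preparation. The main fits and the exact tests of ratios took the libraries as unpaired, and the exact tests had no paired alternative. With the replicate block the age calls in cTEC fell to 1 and those between the days to 1, and other counts stayed within 1.5 times. In the fits per population that block joined the same title number across days and genotypes. Of such pairs 0 of 22 across days and 2 of 22 across genotypes correlated above 0.1, so its age values say little on pairing. Low depth limits SOD1 mTEC d30 1, where 1 count is 34.4 CPM, SOD1 cTEC d120 3, and 4 culture and 2 iLN libraries below 3e+05 counts or 8000 genes.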

Other observations

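Levels of the members in whole organs belong to no population comparison. In whole thymus of d120 (6 libraries, both genotypes) Nfkb1 stood at 93.8 to 126 TPM, Rela at 60.7 to 88.2 TPM, Tnfaip3 at 41.4 to 63.1 TPM and Birc3 at 35.9 to 59.8 TPM. The inhibitor gene Nfkbie stood at 28.9 to 41.8 TPM, Nfkb2 at 24.9 to 37.9 TPM, Relb at 20.6 to 34.2 TPM and Nfkbiz at 13.04 to 17.3 TPM. In iLN of d120 Nfkb1 stood at 156 to 207 CPM, Rel at 97.8 to 184 CPM and Nfkbia at 118 to 241 CPM, while Tnfaip3 stood at 16.3 to 77.8 CPM. Per kilobase of exon Tnfaip3 was the lowest member in iLN, at 6.12 CPM per kilobase, and Rela the second highest, at 28.4 CPM per kilobase, after Nfkbia at 105 CPM per kilobase.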
